A study of Mus musculus with 2 samples.

Results

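A set of stress response genes, 10 of the 27998 genes in the count tables, was followed over single mouse induced pluripotent stem cells, which are body cells returned to pluripotency by reprogramming. They form 2 groups. Ddit3, Ddit4, Atf4, Trib3, Asns and Chac1 are called ATF4-type here, and Bnip3, Ndufa4l2, Egln3 and Ankrd37 hypoxia-type. The 10 genes were chosen with their values in these cells in view, from their levels, their shares of positive cells, their grouping over cells and their ratio between the genotypes. Those measures are therefore given as descriptions, without a test.

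The study compared SRFΔ/Δ cells (KO, with Srf deleted) and SRFf/f cells (WT, with the unrecombined floxed alleles), both kept in medium with serum and each captured as 1 droplet library. Srf encodes serum response factor, a transcription factor. The number of clones behind each genotype, the agent of the deletion and the ages or passages of the cells are not given in the sources used here. Since each genotype is 1 library, replicates are lacking. All differences are between 2 libraries, and all 95% intervals cover counting error only (exact Poisson for levels, conditional on the total for ratios, Clopper-Pearson for shares).

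Cells entered when they had at least 1000 detected genes, 1 to 10% mitochondrial counts and at most 1 unique molecular identifier (UMI, 1 counted RNA molecule) over 8 primitive endoderm genes (Gata6, Gata4, Sox17, Pdgfra, Dab2, Cubn, Lrp2 and Amn). This kept 592 of 1073 KO cells (14760131 UMIs, median 24466.5 per cell) and 880 of 954 WT cells (22833473 UMIs, median 26624). The kept cells carried 4 Srf UMIs in the KO and 198 in the WT library. All 10 pluripotency markers were detected in both, at a summed 10236 and 13420 CPM (UMIs per 1000000 UMIs of the library's kept cells). Cells of the KO library held more mitochondrial RNA, with a median of 4.37% against 3.48%. The rule keeps some cells with fibroblast markers, called feeder-marker cells here, and whether they are feeder cells was not tested. In each library 15 cells had at least 5 UMIs of 12 fibroblast markers. Over all kept cells these markers summed to 235.4 CPM in the KO and 76.6 CPM in the WT library. All 12 were detected in the first and all but Lum in the second. Primitive endoderm markers summed to 24.5 and 11.1 CPM and macrophage markers to 3.18 and 3.46 CPM, with Ptprc at 0 in the WT library. The libraries shared 2 barcodes among all deposited cells and 0 among the kept ones.

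As background, the integrated stress response starts with kinases that phosphorylate the translation initiation factor eIF2 when amino acids, haem or protein folding fail, or when viral RNA is present. General translation then slows while translation of Atf4 mRNA goes up through its upstream open reading frames, and ATF4 switches on genes of amino acid supply and, under lasting stress, of cell death. The hypoxia response works through HIF transcription factors, which prolyl hydroxylases mark for destruction as long as oxygen is present. In low oxygen HIF accumulates and raises genes of glycolysis, mitochondrial turnover and oxygen sensing. Ddit4, an inhibitor of mTORC1 signalling, is known as a target of both.

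The promoters of the members were read for core letters of the elements that each response is known to use. The searched letters were ACGTG, which lies within hypoxia response elements, and TGATGNAA, which lies within the C/EBP-ATF element bound by ATF4 dimers, on both strands of the 250 bases before the RefSeq start site (GRCm38.p6). Of the 10 members, 9 matched the RefSeq table. Ndufa4l2 did not. ACGTG occurred in 5 of the 9 (Ddit4, Asns, Bnip3, Egln3 and Ankrd37) and in 16.6% of all 32851 promoters of that length. TGATGNAA occurred in 2 of the 9 (Asns and Chac1) and in 3.45% of all promoters. A member was counted when any of its listed promoters held the letters, while the shares over all are per promoter. Asns held both, 106 to 110 and 16 to 23 bases before the start, so its matches do not overlap. Both were held by 0.472% of all promoters. Windows of 60 bases that overlap no GENCODE exon are shown 5′ to 3′ on the gene's strand, with the matched letters in capitals: Bnip3 (minus strand, chr7:138909560-138909619), Egln3 (minus, chr12:54204049-54204108), Ankrd37 (minus, chr8:46000037-46000096), Ddit4 (minus, chr10:59951903-59951962) and Asns (minus, chr6:7693265-7693324, with ACGTG read on the other strand) for ACGTG, and Chac1 (plus, chr2:119351044-119351103) for TGATGNAA read on the other strand.
Bnip3: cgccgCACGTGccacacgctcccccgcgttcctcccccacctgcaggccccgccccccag
Egln3: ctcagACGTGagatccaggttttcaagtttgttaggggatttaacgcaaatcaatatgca
Ankrd37: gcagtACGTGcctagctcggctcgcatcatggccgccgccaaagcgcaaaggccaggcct
Ddit4: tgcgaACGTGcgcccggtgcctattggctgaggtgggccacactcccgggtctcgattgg
Asns: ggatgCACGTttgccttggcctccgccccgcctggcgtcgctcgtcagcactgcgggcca
Chac1: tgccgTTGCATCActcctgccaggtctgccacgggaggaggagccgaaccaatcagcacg
In Bnip3 the match is the palindrome CACGTG, so it reads on both strands, 103 to 108 bases before the start. The Ddit4 match lies 183 to 187 bases and the Chac1 match 186 to 193 bases before the start. The Ankrd37 window precedes a RefSeq start that lies inside the longer GENCODE span of Ankrd37 given further on, and it also lies within the span of Lrp2bp. Trib3, Atf4 and Ddit3 held neither set of letters in this window. A match of letters is a description of the sequence, not a bound site.

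The hypoxia-type genes were all lower in the KO library. Bnip3 encodes a mitochondrial outer membrane protein that promotes the removal of mitochondria. It lies on chromosome 7 from 138890836 to 138909519 (minus strand, GRCm38, as for the positions that follow). Bnip3 measured 55.5 CPM in the KO cells (interval 51.8 to 59.4, from 819 UMIs) and 132.3 CPM in the WT cells (127.6 to 137.1, from 3021 UMIs). The log2 ratio of KO over WT was -1.25 (-1.37 to -1.14), so the WT level was 2.38 times the KO level, and the intervals of the levels lay far apart. Ndufa4l2, which encodes a mitochondrial protein related to a subunit of respiratory complex IV, lies on chromosome 10 from 127514967 to 127517154. Ndufa4l2 measured 15.4 CPM in KO and 39.9 CPM in WT cells, a log2 ratio of -1.37 (-1.58 to -1.16).

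Egln3 encodes the prolyl hydroxylase PHD3, itself a HIF target that acts back on HIF. It lies on chromosome 12 from 54178981 to 54203860. Egln3 measured 28.6 CPM in KO and 48.8 CPM in WT cells, a log2 ratio of -0.77 (-0.94 to -0.61). Ankrd37, an ankyrin repeat gene induced in low oxygen, lies on chromosome 8 from 45996902 to 46005707. Ankrd37 measured 52.6 CPM in KO and 69.5 CPM in WT cells, a log2 ratio of -0.40 (-0.53 to -0.28). Among the hypoxia-type genes it was thus the one nearest to equal levels.

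The ATF4-type genes went in different directions. Chac1 encodes an enzyme that degrades glutathione, and Trib3 a pseudokinase that restrains ATF4 signalling. Chac1 (chromosome 2, 119351229 to 119354381) measured 33.1 CPM in KO (30.3 to 36.2) and 15.5 CPM in WT cells (13.9 to 17.2), a log2 ratio of 1.10 (0.90 to 1.30). Trib3 (chromosome 2, 152337422 to 152344032) measured 43.9 CPM in KO and 28.5 CPM in WT cells, a log2 ratio of 0.63 (0.47 to 0.78). Atf4 itself (chromosome 15, 80255184 to 80257541) measured 357.9 CPM in KO and 271.3 CPM in WT cells, a log2 ratio of 0.40 (0.35 to 0.45). Atf4, Trib3 and Chac1 were thus higher in the KO library, beyond counting error. Atf4 is controlled largely at translation, which UMIs of its mRNA do not show.

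Asns encodes asparagine synthetase, a classical amino acid response target, and Ddit3 encodes CHOP, a transcription factor of the late stress response linked to cell death. Both were lower in the KO library over all kept cells. Asns (chromosome 6, 7675169 to 7693254) measured 86.7 CPM in KO and 109.4 CPM in WT cells, a log2 ratio of -0.34 (-0.43 to -0.24). Its ratio was 0.12 (-0.10 to 0.35) in the cells with fewest UMIs, under 21397 per cell (101.7 and 93.3 CPM), and -0.07 over all cells when those under 1% mitochondrial counts were kept. Ddit3 (chromosome 10, 127290774 to 127296288) measured 18.0 CPM in KO and 22.9 CPM in WT cells, a log2 ratio of -0.34 (-0.56 to -0.13). In the cells with fewest UMIs the Ddit3 ratio was 0.00 (-0.54 to 0.53). Ddit4 (chromosome 10, 59949669 to 59951834) was level over all kept cells, at 111.2 CPM in KO and 112.8 CPM in WT cells, a log2 ratio of -0.02 (-0.11 to 0.07). By depth, the Ddit4 ratio was 0.02 (-0.20 to 0.24) in the cells with fewest UMIs. It was -0.34 (-0.50 to -0.18) in cells of 21397 to 29655 UMIs and 0.20 (0.07 to 0.33) in deeper ones.

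**Figure D1:**
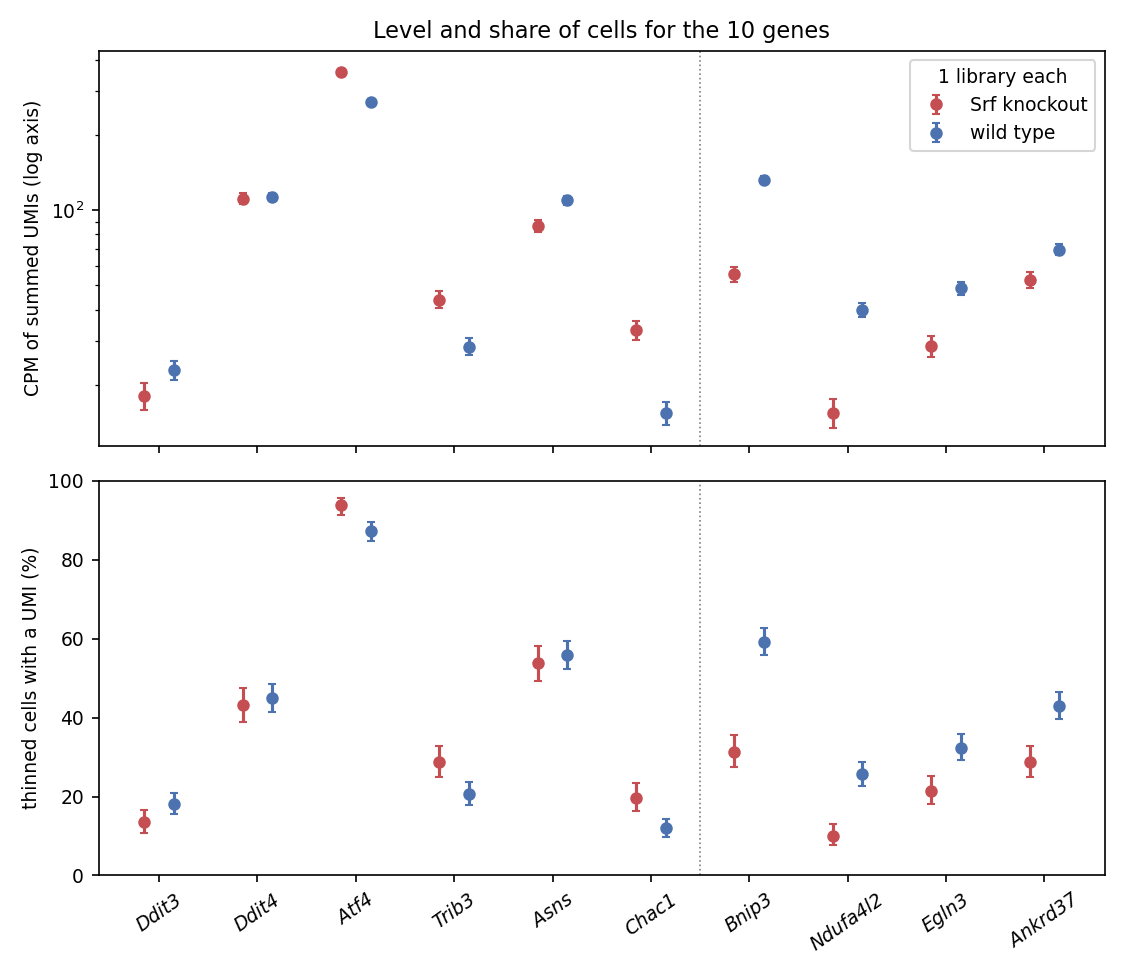
The upper panel plots the level of each gene in CPM on a log axis and the lower panel the share of thinned cells with at least 1 UMI in percent, for the KO (red) and WT (blue) library, with 95% intervals of counting error. The 4 hypoxia-type genes right of the dotted line sit lower in the KO library, while Chac1 sits at 33.1 against 15.5 CPM and Ddit4 is level.

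Among 6461 genes averaging 10 CPM or more, 7.2% differed by at least 1.5-fold: 4.72% were at least 1.5-fold higher and 2.48% at least 1.5-fold lower in the KO library. The median log2 ratio was 0.06, and the 10th and 90th percentiles were -0.31 and 0.43. Of the 4 hypoxia-type genes, 3 were lower by at least that fold (Bnip3, Ndufa4l2 and Egln3), with a median log2 ratio of -1.01 over the 4. Of the 6 ATF4-type genes, 2 were higher by at least that fold (Chac1 and Trib3) and 0 lower, with a median of 0.19 over the 6. Since the members were chosen on this contrast, nothing is read from these counts.

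Some of the genes share transcribed ground with a neighbour. Ddit3 and Ndufa4l2 lie 218679 bases apart on chromosome 10. The end of Ddit3 overlaps Mars on the other strand (733 KO and 1067 WT UMIs), and the end of Ndufa4l2 overlaps Shmt2 on the other strand (919 and 1473 UMIs). Ankrd37 overlaps Ufsp2 (380 and 376 UMIs) and Lrp2bp (0 and 2 UMIs). Use of strand in the counting is not given in the sources used here, so reads from the overlaps cannot be told apart.

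For shares of cells and for co-expression, each cell was thinned at random to 10235 UMIs, which set aside the shallowest 10% of kept cells. That left 527 KO and 797 WT cells, and left out 65 and 83 shallower ones. No cell type of these libraries is known to lack all 10 genes, so no share of cells serves as a common background. The feeder-marker cells were shallower (median 15910 UMIs in the KO and 13695 in the WT library). In the 15 feeder-marker cells of each library, Chac1 had 0 UMIs among 280881 in the KO and 0 among 280111 in the WT library, which allows up to 10.7 CPM in each when a count of 0 is read as at most 3 counts. Trib3 and Ndufa4l2 also had 0 UMIs there in the KO library. Ddit3 was instead high in those KO cells, with 29 of the library's 266 UMIs (103.2 CPM), and without feeder-marker cells its log2 ratio was -0.46.

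Fewer KO cells carried the hypoxia-type genes. Bnip3 was seen in 31.3% of KO cells (interval 27.4 to 35.5) and 59.2% of WT cells (55.7 to 62.7). Ndufa4l2 was seen in 10.1% (7.62 to 12.9) and 25.6% (22.6 to 28.8). Egln3 was seen in 21.4% and 32.4%, and Ankrd37 in 28.8% and 43.0%. Without thinning the shares were 49.2% and 78.8% for Bnip3, 19.3% and 42.4% for Ndufa4l2, 32.9% and 53.9% for Egln3, and 45.6% and 65.6% for Ankrd37. Among the 15 feeder-marker cells, Bnip3 was seen in 5 KO and 8 WT cells and Ankrd37 in 1 and 4. Among cells that carried it, the mean of thinned Bnip3 UMIs was 1.73 in KO and 2.22 in WT cells, so both the share of positive cells and the number of molecules per positive cell were lower in the KO library.

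Among the ATF4-type genes, Chac1, Trib3 and Atf4 were seen in more KO than WT cells. Chac1 was seen in 19.7% of KO cells (16.4 to 23.4) and 11.9% of WT cells (9.75 to 14.4). Trib3 was seen in 28.8% and 20.6%, and Atf4 in 93.7% and 87.2%. Ddit4 was seen in 43.1% (38.8 to 47.4) and 44.9% (41.4 to 48.4), Asns in 53.7% and 55.8%, and Ddit3 in 13.5% (10.7 to 16.7) and 18.1% (15.5 to 20.9), with overlapping intervals for Ddit4, Asns and Ddit3. Without thinning the shares were 31.8% and 18.3% for Chac1, 49.8% and 36.9% for Trib3, 97.6% and 96.1% for Atf4, 55.4% and 64.2% for Ddit4, 74.7% and 79.2% for Asns, and 24.7% and 29.7% for Ddit3. Over 100 random draws of the thinning, the mean share of Asns was 51.7% in KO and 58.2% in WT cells, and that of Ddit4 was 40.9% and 46.1%. Ddit4 was thus level in CPM while its mean share was lower in the KO library. No counting interval was set on these means. A single draw moves a share by an SD of 0.72 to 1.47 percentage points over draws, in addition to the counting intervals.

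Taken by cell, the hypoxia-type genes differed over most of their range. Their summed UMIs were 0 in 45.5% of KO and 20.8% of WT cells. The median cell held 1 summed UMI in the KO and 2 in the WT library, and the 90th percentile was 4 and 7 UMIs. At least 2 of the 4 genes were detected in 121 of 527 KO cells (23.0%, interval 19.4 to 26.8) and in 393 of 797 WT cells (49.3%, 45.8 to 52.8). All 4 were detected in 19 KO cells (3.61%) and 57 WT cells (7.15%). The 10% of cells with most of these UMIs held 49.6% of them in the KO and 34.4% in the WT library. These UMIs were thus seen in a smaller share of cells in the KO library. The mean sum was 1.49 UMIs per KO and 2.98 per WT cell. A lower sum by itself raises the share of cells at 0 and the part held by the top cells. Whether the UMIs were concentrated beyond that was not tested.

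The ATF4-type genes without Atf4, which most cells carried, gave nearly the same distribution in both libraries. Their median sum was 2 UMIs and their 90th percentile 7 UMIs in each. At least 2 of Ddit3, Ddit4, Trib3, Asns and Chac1 were detected in 256 of 527 KO cells (48.6%, 44.2 to 52.9) and 348 of 797 WT cells (43.7%, 40.2 to 47.2). That difference of 4.91 percentage points depended on the random draw: it averaged 1.09 points over 100 draws and ranged from -4.79 to 6.30. No difference was detectable at this depth over all kept cells. Within the bands of mitochondrial share described further on, the difference was 6.96, 13.4 and 12.1 points from the lowest to the highest band. These band values come from the same single draw that gave 4.91 points and were not averaged over draws. The lowest band held only 115 KO and 322 WT thinned cells.

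**Figure D2:**
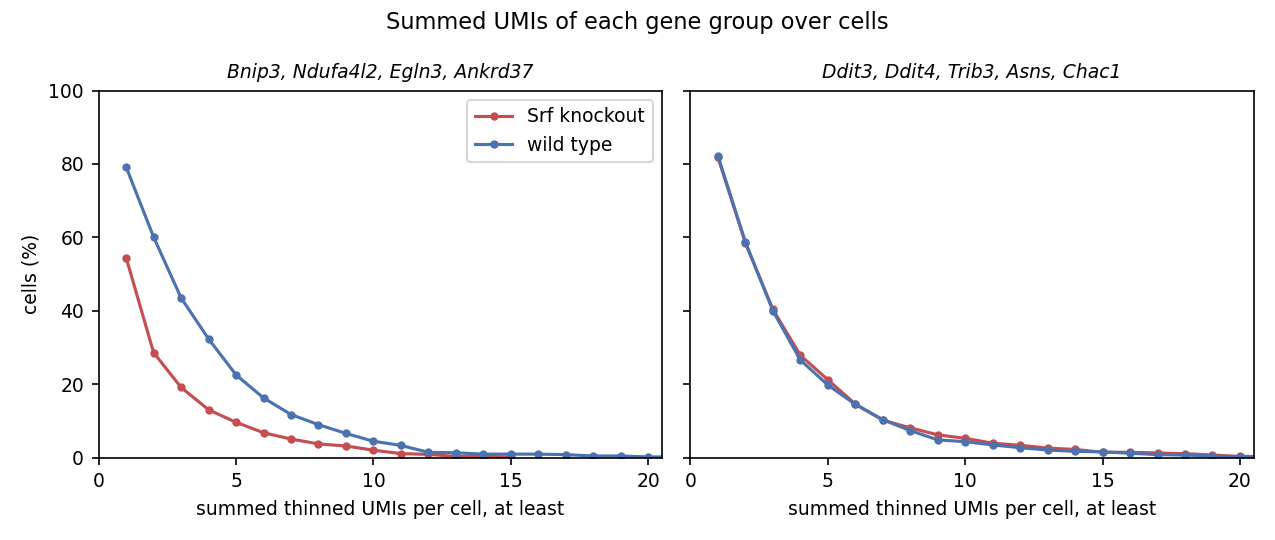
The panels plot the percent of thinned cells (vertical axis) that hold at least a given number of summed UMIs (horizontal axis) for the 4 hypoxia-type genes (left) and for the 5 ATF4-type genes without Atf4 (right), in the KO (red) and WT (blue) library. The left curves are apart, with 45.5% of KO and 20.8% of WT cells at 0 UMIs, and the right curves lie almost on each other.

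Co-expression was described by Pearson correlation over the cells of 1 library on log2(thinned UMIs + 1). The cells of a library share their capture and the thinned depth, and sparse counts keep such correlations low, so no p-value is given. The hypoxia-type genes went together in both libraries. Their 6 pairs had a median correlation of 0.35 (0.28 to 0.38) over 527 KO cells and of 0.26 (0.24 to 0.35) over 797 WT cells. Ndufa4l2 with Ankrd37 reached 0.38 and 0.35, with means of 0.36 and 0.27 over 100 draws. In the KO library Ndufa4l2 and Egln3 were detected together in 34 cells, against 11.4 if they were independent.

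The ATF4-type genes were less tied to each other. Their 15 pairs had a median of 0.19 (0.06 to 0.29) in KO and 0.16 (0.08 to 0.27) in WT cells. The 24 pairs that cross the groups had a median of 0.16 (0.06 to 0.42) in KO and 0.11 (-0.01 to 0.35) in WT cells. The ATF4-type pairs therefore stood above the crossing pairs by 0.03 in KO and 0.05 in WT cells, and the hypoxia-type pairs by 0.19 and 0.15. Over 100 draws the first excess averaged 0.01 in KO (-0.03 to 0.07) and 0.07 in WT cells, and the second 0.17 and 0.16. Among the closer ATF4-type pairs in both libraries were those of Atf4, Trib3 and Chac1. Atf4 with Chac1 reached 0.29 and 0.24, Atf4 with Trib3 0.27 and 0.24, and Trib3 with Chac1 0.21 and 0.26. Trib3 and Chac1 were detected together in 44 WT cells, against 19.5 if independent, and in 44 KO cells, against 30.0.

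Ddit4 accounted for the highest of the crossing pairs. Its correlation with Bnip3 was 0.42 in KO and 0.33 in WT cells, and with Ndufa4l2 0.34 and 0.35. Its median over the 4 hypoxia-type genes was 0.36 and 0.29, against 0.19 and 0.22 over the other 5 ATF4-type genes. Without Ddit4 the 20 remaining crossing pairs had a median of 0.15 and 0.08. By this measure Ddit4 thus sat nearer to the hypoxia-type genes than to the other ATF4-type genes in both libraries, and it was tied to both. Its ratio between the libraries was level over all kept cells.

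Ddit3 was loosely tied to the other ATF4-type genes. For Ddit3 the median correlation with the other 5 ATF4-type genes was 0.10 in KO and 0.14 in WT cells. The highest partner of Ddit3 in both libraries was Ddit4, at 0.20 and 0.27. Asns had medians of 0.18 and 0.12 with the other ATF4-type genes. The medians over all ATF4-type pairs were 0.19 and 0.16, so Asns was near that in KO and under it in WT cells. Chac1 differed in its ties to the hypoxia-type genes, which ranged from 0.23 to 0.27 in KO and from 0.03 to 0.13 in WT cells.

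**Figure D3:**
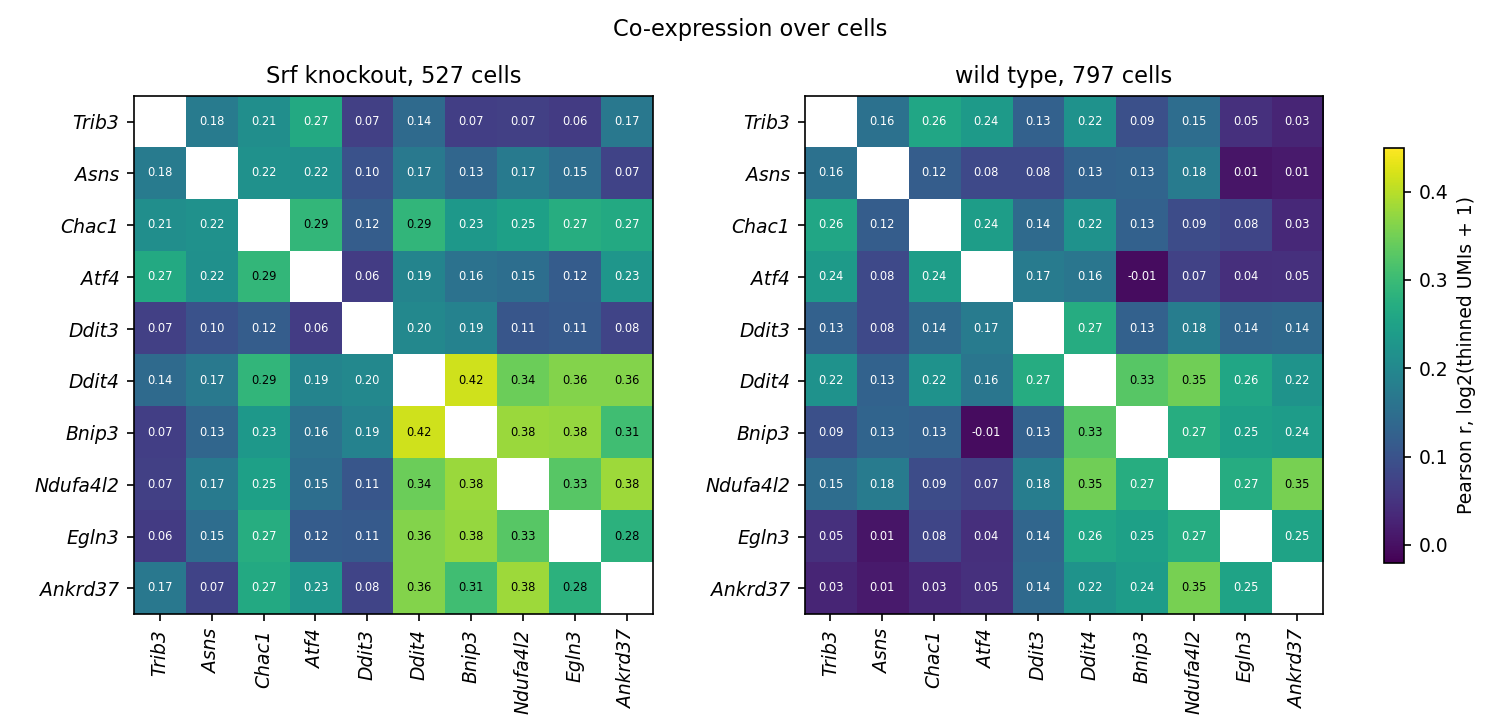
Each panel shows the Pearson correlation over thinned cells for every pair of the 10 genes in the KO (left, 527 cells) and WT (right, 797 cells) library, in colour and as a number. The block of high values runs from Ddit4 through Bnip3, Ndufa4l2, Egln3 and Ankrd37 in both libraries, and Atf4, Trib3 and Chac1 form a weaker block. In the KO library the weaker block is not set apart, since Chac1 has 0.23 to 0.27 with the hypoxia-type genes and 0.21 with Trib3.

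Ddit4 was also followed over classes of cells. Cells were sorted by whether they held at least 2 hypoxia-type genes, at least 2 of Ddit3, Trib3, Asns and Chac1, both or neither. In the WT library Ddit4 averaged 0.54 thinned UMIs in 324 cells with neither, 0.70 in 80 cells with the ATF4-type genes only, 1.14 in 273 cells with the hypoxia-type genes only and 2.93 in 120 cells with both. In the KO library the averages were 0.61 in 293 cells, 0.58 in 113 cells, 1.29 in 62 cells and 4.27 in 59 cells. Ddit4 was thus highest where both sets were present, in each library, and about as low with the ATF4-type genes alone as with neither. Cells with both made up 11.2% of KO cells (8.63 to 14.2) and 15.1% of WT cells (12.6 to 17.7), which is 59 cells against 39.5 and 120 cells against 98.6 if the sets were independent.

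Steps were also seen one gene at a time. Ndufa4l2 was detected in 5.14% of WT cells in which none of Bnip3, Egln3 and Ankrd37 was detected and in 50.4% of those in which all 3 were, and in 2.04% and 55.9% of the KO cells. Chac1 was detected in 13.8% of KO cells without any hypoxia-type gene and in 55.4% of those with at least 3. In the WT library the same shares of Chac1 were 11.4% and 16.3%. Atf4 was detected in most cells of every class, so its mean is given: 3.24 thinned UMIs in KO cells without any hypoxia-type gene and 5.07 in those with at least 3, against 2.72 and 2.77 in the WT library.

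Genes that are not members were then set beside each member. They were measured in the same cells as the pair correlations, and their lists were chosen with earlier results known. The values are a description, not separate evidence for the grouping. Scores were built per cell from 37 measured genes of a list of ATF4 targets and 30 measured genes of a list of hypoxia-inducible genes, neither with a member in it. The 4 hypoxia-type genes correlated more with the hypoxia score, from 0.41 to 0.52 in KO and 0.32 to 0.47 in WT cells, than with the ATF4 target score, from 0.20 to 0.27 and 0.06 to 0.19. Atf4, Trib3, Asns and Chac1 correlated more with the ATF4 target score, from 0.31 to 0.41 and 0.22 to 0.31. By these scores Ddit4 lay with the hypoxia-type genes (0.55 and 0.43 with the hypoxia score, 0.30 and 0.20 with the ATF4 target score). Ddit3 was low on both (0.10 and 0.17, then 0.12 and 0.18). The 2 scores were themselves correlated, at 0.43 in KO and 0.22 in WT cells. A score of 19 endoplasmic reticulum chaperone and unfolded protein response genes correlated with no member above 0.20, in either library.

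**Figure D4:**
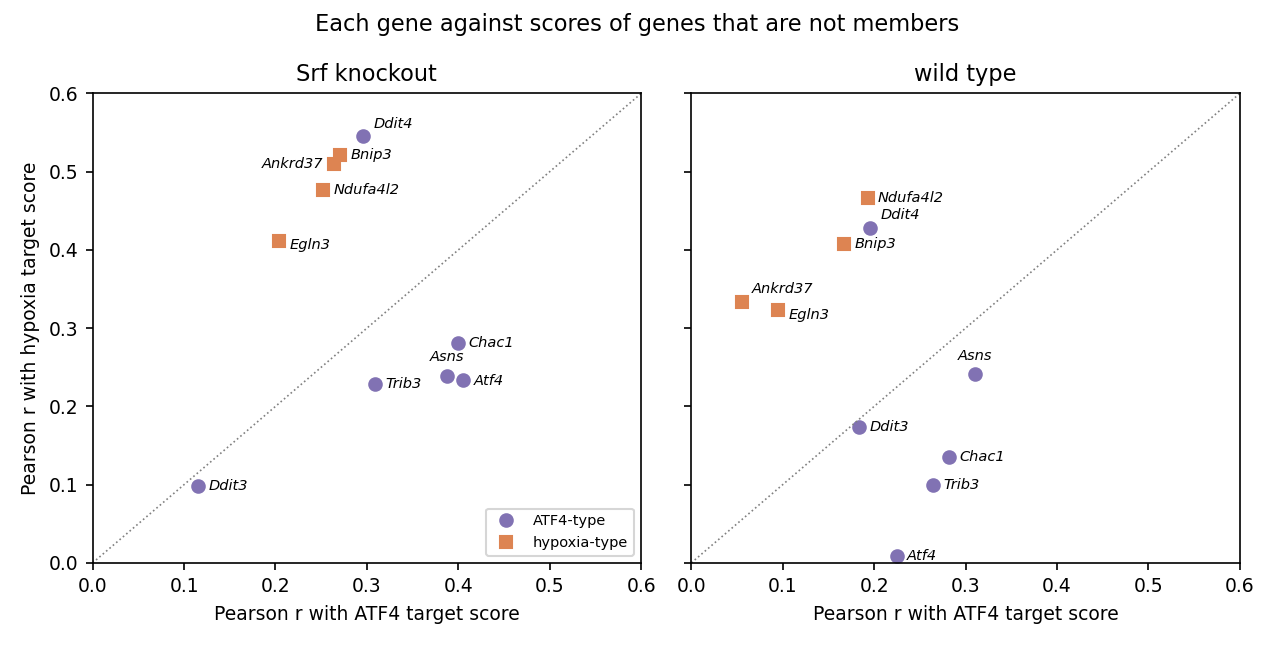
For each gene, its Pearson correlation over thinned cells with the ATF4 target score (horizontal axis) is plotted against that with the hypoxia target score (vertical axis) in each library, with circles for ATF4-type and squares for hypoxia-type genes and a dotted line of equality. Ddit4 lies among the squares above the line in both libraries, and Ddit3 lies close to the line.

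Of 6203 genes averaging 0.1 or more thinned UMIs in both libraries, those most like the hypoxia-type sum were led by enzymes of glycolysis, ranked by the lower of the correlations in the 2 libraries. The leading 10 were Aldoa (0.52 in KO and 0.42 in WT cells), Tpi1 (0.47 and 0.35), Ldha (0.41 and 0.35), Eno1, Fam162a, Rpl3, Pgam1, Gpi1, Upp1 and Gapdh (0.33 and 0.28). Fam162a is a mitochondrial gene induced in low oxygen, Upp1 encodes uridine phosphorylase, and Rpl3 is a ribosomal protein gene. Ddit4 had 0.50 and 0.39 with the same sum, and of the genes that are not members only Aldoa ranked above it. All 10 leading genes were lower in the KO library, from a log2 ratio of -0.11 for Eno1 to -0.71 for Fam162a. Of the 6461 genes averaging 10 CPM or more, 42.2% were lower. The 10 were picked in these same cells for following the hypoxia-type sum, so nothing is read from this count.

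The ATF4-type sum without Atf4, in which Ddit4 weighs heavily, was closest to Eno1 (0.35 and 0.34), Aldoa (0.38 and 0.34), Gapdh, Ldha, Pkm, Tpi1, Stc2, Adh5, Nupr1 and Slc3a2 (0.24 and 0.23). Stc2, Nupr1 and Slc3a2, which encode a secreted glycoprotein, a chromatin-associated stress protein and the heavy chain of amino acid transporters, are on the ATF4 target list. With Ddit4 left out as well, a sum chosen after these values were seen, Nupr1 (0.35 and 0.26) and Slc3a2 (0.26 and 0.25) led, and Mthfd2, a mitochondrial folate enzyme, ranked among the 10 (0.28 and 0.21). Ldha, Eno1, Aldoa, Gapdh, Pkm, Upp1 and Adh5 were the others. Ddit4 itself had 0.28 and 0.26 with this sum of Ddit3, Trib3, Asns and Chac1. Of the genes that are not members, 0 ranked above it there. Enzymes of glycolysis were thus near both sums.

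The wider pathways were compared by counts of genes past 1.5-fold, beside the shares of 4.72% and 2.48% over all genes. Of 48 ATF4 target genes, 38 reached 10 CPM. Of these, 29 were higher and 9 lower in the KO library, where 57.8% of all 6461 genes were higher and 42.2% lower, with a median log2 ratio of 0.13, and 3 were at least 1.5-fold higher and 1 at least 1.5-fold lower. The 3 were Slc7a5 (119.3 against 49.3 CPM), a transporter of large neutral amino acids, Slc7a1 (33.4 against 16.9 CPM), a transporter of cationic amino acids, and Sesn2 (37.3 against 20.4 CPM), a leucine sensor. The lower gene was Pycr1, of proline synthesis (8.67 against 16.8 CPM).

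Of 48 hypoxia-inducible genes, 31 reached 10 CPM. Lower in the KO library were 21 and higher 10, beside the same 42.2% and 57.8% over all genes, with a median log2 ratio of -0.18. At least 1.5-fold lower were 4, namely Aldoc (8.94 against 18.3 CPM), Fam162a (193.8 against 317.7 CPM), P4ha1, a collagen prolyl hydroxylase (10.0 against 15.7 CPM), and Tpi1 (242.0 against 363.3 CPM). Loxl2, a lysyl oxidase of the matrix, was the 1 gene higher by that fold (70.1 against 25.4 CPM). Of 11 oxygen sensing regulators, 8 reached 10 CPM, with a median log2 ratio of 0.43. Epas1, which encodes HIF-2 alpha (25.1 against 16.4 CPM), and Cited2, which competes with HIF for a coactivator (48.2 against 31.5 CPM), were past the fold and 0 were lower by it.

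Upstream of ATF4, 0 of 11 measured genes of the eIF2 kinases, phosphatase subunits and exchange factor were past 1.5-fold in either direction, with a median of 0.02. Over all genes 7.2% were past it, so a count of 0 among so few genes says little. Of the 11, 8 were higher and 3 lower in the KO library, and the highest log2 ratio was 0.57, just under the cut. Of 19 measured chaperone and unfolded protein response genes, Herpud1 of endoplasmic reticulum degradation was past it (22.4 against 10.6 CPM), and the median was 0.15. Of 18 measured genes of the heat shock, p53 and oxidative stress responses, Mdm2, the ubiquitin ligase of p53, was past it (65.4 against 39.4 CPM), and the median was 0.17. That last median was 0.01 without the feeder-marker cells.

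Mitochondrial share was also set against the members. Over thinned cells, it correlated negatively with each of the 10 genes in both libraries, from -0.11 to -0.22 in KO and from -0.12 to -0.25 in WT cells. The thinned total includes mitochondrial UMIs, so a higher share leaves fewer UMIs for all other genes. This correlation was not computed for genes that are not members, so it is not read as particular to the members. Cells were therefore also compared within 3 bands of mitochondrial share, bounded at 3.12% and 4.44% in both libraries. The summed hypoxia-type level was 249, 147.1 and 99.5 CPM from the lowest to the highest band in the KO and 369.3, 234.0 and 218.8 CPM in the WT library. The log2 ratios of this sum within the bands were -0.57 (-0.67 to -0.47), -0.67 (-0.80 to -0.54) and -1.14 (-1.29 to -0.99), against -0.93 over all kept cells. The sum was thus lower in the KO library within each band, by less in the lower bands. The summed ATF4-type level without Atf4, with a log2 ratio of 0.02 over all kept cells, had ratios of 0.20 (0.12 to 0.28), 0.43 (0.33 to 0.54) and 0.15 (0.02 to 0.29) in the same bands, so it was higher in the KO library within each. Its ratio was -0.32 (-0.40 to -0.25) in cells of usual and 0.41 (0.29 to 0.54) in cells of raised chromosome 8 share, which is defined further on.

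Single members did not all keep their ratio within bands. Bnip3 had log2 ratios of -0.89, -1.05 and -1.34, and Ndufa4l2 of -1.01, -1.12 and -1.29. Egln3 had -0.32, -0.47 and -1.20. Ankrd37 was level in the lowest band, with 79.2 CPM in each library (log2 ratio 0.00, interval -0.19 to 0.19), and at -0.78 (-1.05 to -0.52) in the highest.

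Among the ATF4-type genes, Chac1 (1.31, 1.39 and 1.64), Trib3 (0.64, 1.16 and 0.89) and Atf4 (0.45, 0.47 and 0.47) were higher in the KO library in every band. Asns had -0.23, -0.07 and -0.09, so its ratio over all cells was larger in size than in any band. Ddit3 had -0.27, 0.33 and -0.20, each with an interval that included 0, and its sign turned in the middle band. Ddit4 was higher in the KO library in the lowest and middle bands (0.27, interval 0.14 to 0.40, and 0.45, 0.28 to 0.62) and level in the highest (-0.07, -0.29 to 0.16). For the log2 UMI total of the cell before thinning, correlations with the members were from -0.04 to 0.12.

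Ankrd37 lies on chromosome 8, whose share of UMIs per cell also differed. It was over 1.2 times the WT median in 280 of 592 KO cells (47.3%, interval 43.2 to 51.4) and in 88 of 880 WT cells (10.0%, 8.10 to 12.2). Within the KO library the summed hypoxia-type level was 184.5 CPM in raised cells (174.6 to 194.7) and 121.7 CPM in usual cells (114.0 to 129.8). Within the WT library it was 273.0 CPM (252.0 to 295.2) and 292.4 CPM (285.0 to 299.8). Ddit4 measured 145.7 CPM in raised and 78.6 CPM in usual KO cells, and 94.8 and 114.8 CPM in the WT library. Its log2 ratio between the genotypes was therefore -0.54 (-0.68 to -0.42) in usual cells and 0.62 (0.41 to 0.84) in raised cells. Raised KO cells also had a lower median mitochondrial share than usual ones (3.84% against 4.76%), and the part of either measure in these ratios was not tested.

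In usual cells the other ratios were -1.48 for Bnip3, -1.61 for Ndufa4l2, -1.21 for Egln3, -0.79 for Ankrd37, 0.65 for Chac1, 0.30 for Trib3, 0.29 for Atf4, -0.50 for Asns and -0.38 for Ddit3. In raised cells they were -0.71, -0.97, -0.35, -0.40, 1.38, 0.82, 0.56, -0.24 and 0.50 in the same order. Every hypoxia-type gene was nearer to the WT level in raised than in usual cells.

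**Figure D5:**
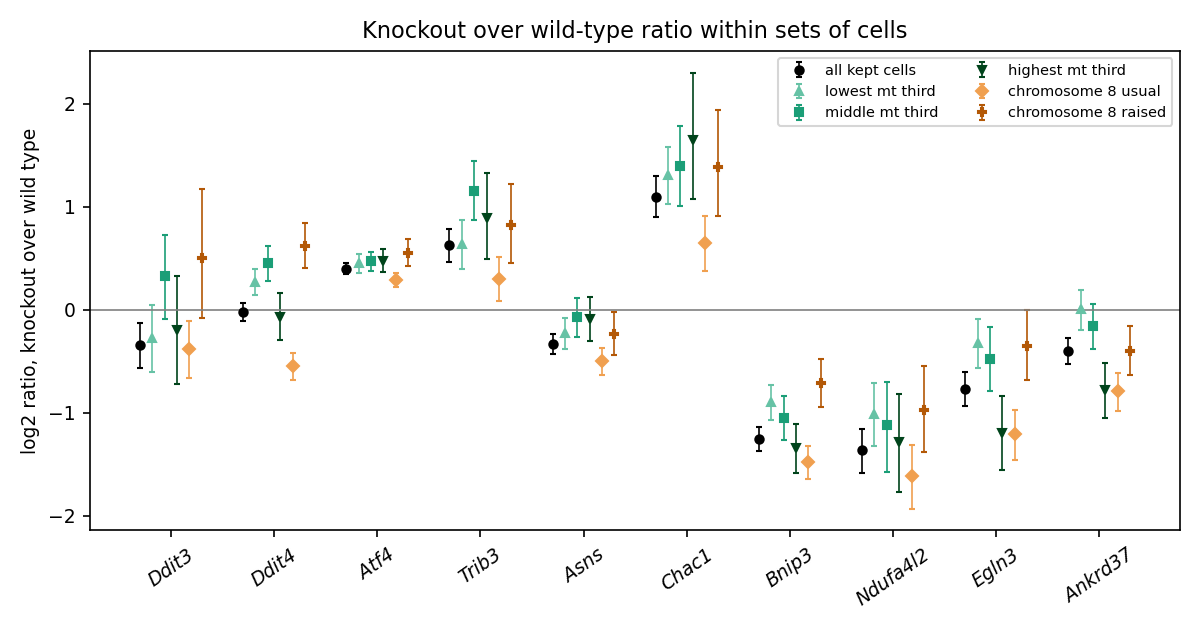
The log2 ratio of KO over WT (vertical axis, with 95% intervals of counting error) is plotted for each gene in all kept cells, in 3 bands of mitochondrial share (mt) and in cells of usual or raised chromosome 8 share. Bnip3 and Ndufa4l2 lie under 0 and Chac1, Trib3 and Atf4 over 0 in all 6 sets of cells, while Ddit4 and Ddit3 lie on either side.

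Cells just outside the rule were measured in the same way. In cells left out for 2 or more primitive endoderm UMIs (161 KO and 22 WT cells), the summed hypoxia-type level was 99.7 CPM in the KO and 254.1 CPM in the WT library, and Ddit4 was 55.4 and 132.0 CPM. In cells with under 1% mitochondrial counts (227 and 17 cells), Asns was 214.4 CPM in the KO and 221.1 CPM in the WT library, and the summed hypoxia-type level was 126.3 and 391.2 CPM. Ddit3 was 9.47 CPM in those KO cells (24 UMIs) and 88.4 CPM in those WT cells (26 UMIs). In cells above 10% (73 and 33 cells), the summed hypoxia-type level was 77.3 and 148.9 CPM. Some of these sets hold few WT UMIs, so their intervals are wide.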

How the data were processed

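The authors deposited raw UMI counts per gene and cell for each library, as integers per the file headers, with no normalization. Libraries were made on the 10x Genomics Chromium platform, per the labels' protocols. Cell Ranger 2.0.0, Seurat 3.1.1 and the genome build mm10 are named in the submitters' processing notes. How these tools were used, which annotation was counted and how cells were called from droplets are not given in the sources used here.

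Counts were summed over kept cells and scaled to CPM, and log2 ratios used 0.5 added counts. Of 27998 gene identifiers, 27645 (98.7%) were matched to GENCODE M21 (GRCm38). Chromosome 8 shares were taken among autosomal genes, leaving out ribosomal protein genes and those above 500 CPM. Scrublet in scanpy 1.11.5 called 1 KO and 2 WT cells as doublets, so some doublets probably remained. The KO call was left out by the cell rule, and the 2 WT calls were kept. TMM factors came from edgeR 4.0.16. Scores are means of standardised log2(thinned UMIs + 1). The ratio and correlation code was tested on simulated data. Named were all members, the 10 genes most like each group and, per list, up to 3 genes past 1.5-fold in each direction. Tpi1, beyond that limit in its list, is named as one of the genes most like a group. The members and lists were chosen with earlier results of these data known. Alternatives covered scaling, filters, thinning and sets of cells.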

Additional observations from a re-analysis of the deposited data

How the results depend on the processing

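No paired analysis was possible because there is only 1 library for KO and 1 for WT. For groups, lists and shares, each value that shifted by more than the half-width of a counting interval is given, and for single genes those that changed sign or moved outside the sets of cells described in the report. Bands of mitochondrial share, raised chromosome 8 cells, further draws and the regrouping of Ddit4 were chosen after seeing the data. The causes of the moves were not tested.

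The median log2 ratio of the hypoxia-type genes was negative under all 15 alternatives run (-1.34 to -0.56). It was -0.61, -0.76 and -1.24 from the lowest to the highest mitochondrial band, -1.34 in usual and -0.56 in raised chromosome 8 cells. That of the ATF4-type genes was 0.36 and 0.46 in the lowest and middle bands, 0.59 in raised cells and -0.0444 in usual cells, a change of sign. Among single genes, signs changed for Ankrd37 in the lowest band (0.0028) and for Ddit3 in the middle band (0.33) and in raised cells (0.50). Ddit4, at -0.02 over all kept cells, was positive in 4 of 15 alternatives, among them the lowest (0.27) and middle (0.45) bands and raised cells (0.62). With the lower mitochondrial limit dropped Asns was -0.07, within its half-width of 0, and with cells weighted alike -0.21. Atf4 was 0.32 under TMM and under median-of-ratios scaling. With primitive endoderm cells kept Ddit4 was -0.19, Egln3 -0.97 and Ankrd37 -0.55, and without the deepest 5% of cells Ddit4 was -0.14.

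The difference in cells with at least 2 hypoxia-type genes was negative in all 17 alternatives. It was -31.4 points when 2 UMIs of any of them sufficed, -20.5 and -20.6 in the lowest and middle bands, -17.1 in raised and -32.0 in usual cells. That for the ATF4-type genes was, in the first draw only, 12.1 and 13.4 points in the highest and middle bands and -2.72 in usual cells. In another draw it was -3.48 over all kept cells. In raised WT cells, 79 after thinning, hypoxia-type pairs stood 0.32 and ATF4-type pairs 0.14 above crossing pairs. In KO cells the excess of ATF4-type pairs ranged from -0.0125 to 0.0563 over 18 alternatives, so it is not resolved.

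Counts past 1.5-fold over all genes were 465, and 104 at 2-fold, 1673 with genes of at least 1 CPM and 730 in the highest band. List medians moved to 0.32 (ATF4 targets) and 0.31 (chaperones) in the highest band, -0.0750 (chaperones) and 0.12 (oxygen sensing) in the lowest, and 0.21 (eIF2 genes) and 0.17 (oxygen sensing) in raised cells. With primitive endoderm cells kept, chaperones reached 0.52. Other stress genes were 0.0120 without feeder-marker cells, -0.0902 in the highest band and -0.0620 in raised cells. TMM and median-of-ratios scaling moved the median of all genes from 0.06 to -0.02.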
